A study of Rattus norvegicus with 18 samples.

Results

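The genes described here are noncoding genes whose level in the rat heart differed strongly between a hypertensive and a normotensive strain. They were picked from a table of 37262 genes in 18 libraries of heart RNA, of which 16902 are listed by NONCODE identifiers (NONCODE is a database of noncoding RNAs) and 20360 by Ensembl identifiers. Levels are FPKM, sequenced fragments scaled to gene length and to the size of the library, so they can be compared between genes. A gene was a member if its identifier starts with NONRATG, if it reached 1 FPKM in at least 6 of the 18 libraries, if the mean of log2(FPKM + 1) differed by at least 1 between SHR and WKY, and if the 6 SHR and the 6 WKY values did not overlap. Of 5001 NONCODE genes that reached 1 FPKM in 6 libraries, 75 met the rule (1.5%), with 31 higher and 44 lower in SHR. Because the members were chosen on SHR and WKY values, the strain differences below are descriptions with no test, while the libraries of the treated group entered the choice only through the 1 FPKM limit. Without them 74 of the 75 members still reached 1 FPKM in 6 libraries, and NONRATG022880.2 did so in 5.

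Long noncoding RNAs are transcripts that are not translated into protein. Some regulate nearby genes or chromatin, some act as scaffolds or bind microRNAs, and for most no function is known. Many are transcribed at low levels, differ between tissues and are less conserved in sequence than coding genes, and their levels often vary between inbred strains. In the heart, well studied examples take part in hypertrophy and in the response to pressure load. The sources used here pair no member with a symbol, a position or a role, so each is given by its identifier. None of the 75 identifiers was found in the RefSeq tables used here (assembly GRCr8). No Ensembl identifier of the series was found there either, so the absence says nothing about the members.

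WKY (Wistar-Kyoto) is the normotensive inbred strain that usually serves as control for SHR, the spontaneously hypertensive rat, which was bred from the same stock. Heart tissue gave 6 libraries from each of 3 groups, which were WKY rats, SHR that received NS (called SHR below) and SHR that received QDG. What NS and QDG stand for is not spelled out, and the labels leave it unclear whether WKY was given NS as well, so strain and NS cannot be told apart if it was not. Age, sex, dose and length of treatment were not among the labels used here. The count of 6 per group is not tied to separate animals in the labels, so the p-values below rest on the spread among libraries, which may be technical. Read depth is not given; relative depth, read from the steps between the lowest values, ran from 0.879 (WKY replicate 5) to 1.10 (SHR replicate 4) of WKY replicate 1. Since Ensembl identifiers could not be matched to symbols either, markers of heart muscle and of other cell types were not checked. In whole tissue, fewer cells of a type and less RNA per cell cannot be told apart.

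The members higher in SHR together held 63.9 ± 9.16 FPKM per WKY library, against 357 ± 11.2 for SHR and 324 ± 30.6 with QDG (SD, n = 6 each). Those lower in SHR held 299 ± 34.5 FPKM per WKY library, against 82.7 ± 5.29 for SHR and 99.3 ± 11.1 with QDG (SD, n = 6 each). A large part of the first sum came from NONRATG027042.1, and without it the sums were 63.0 ± 9.10, 230 ± 6.78 and 216 ± 12.2 FPKM (SD, n = 6 each). Most differences were moderate on the scale of log2(FPKM + 1), which understates changes of low genes. Under 1.5 on that scale were 22 of the 31 higher and 33 of the 44 lower members, and 5 members in each direction reached 2. In the strain where they were lower, 13 higher and 23 lower members had a mean under 1 FPKM. The fold can then be large, as for NONRATG008226.2, with a difference of -1.498 and a WKY mean 18.5-fold the SHR mean. Over all 18 libraries the median level was 4.74 FPKM for the higher members, 2.06 for the lower members and 2.20 for all 5001 NONCODE genes kept. Most of these libraries are of the SHR strain, so these medians favour the higher members by the way the members were chosen. In the strain where each was higher, the median of the mean levels was 5.85 FPKM for the higher and 4.04 for the lower members. Ensembl genes met the same limits at a similar frequency, 152 of 12396 (1.23%), with 81 higher and 71 lower in SHR; the difference between the classes was not tested.

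**Figure D1:**
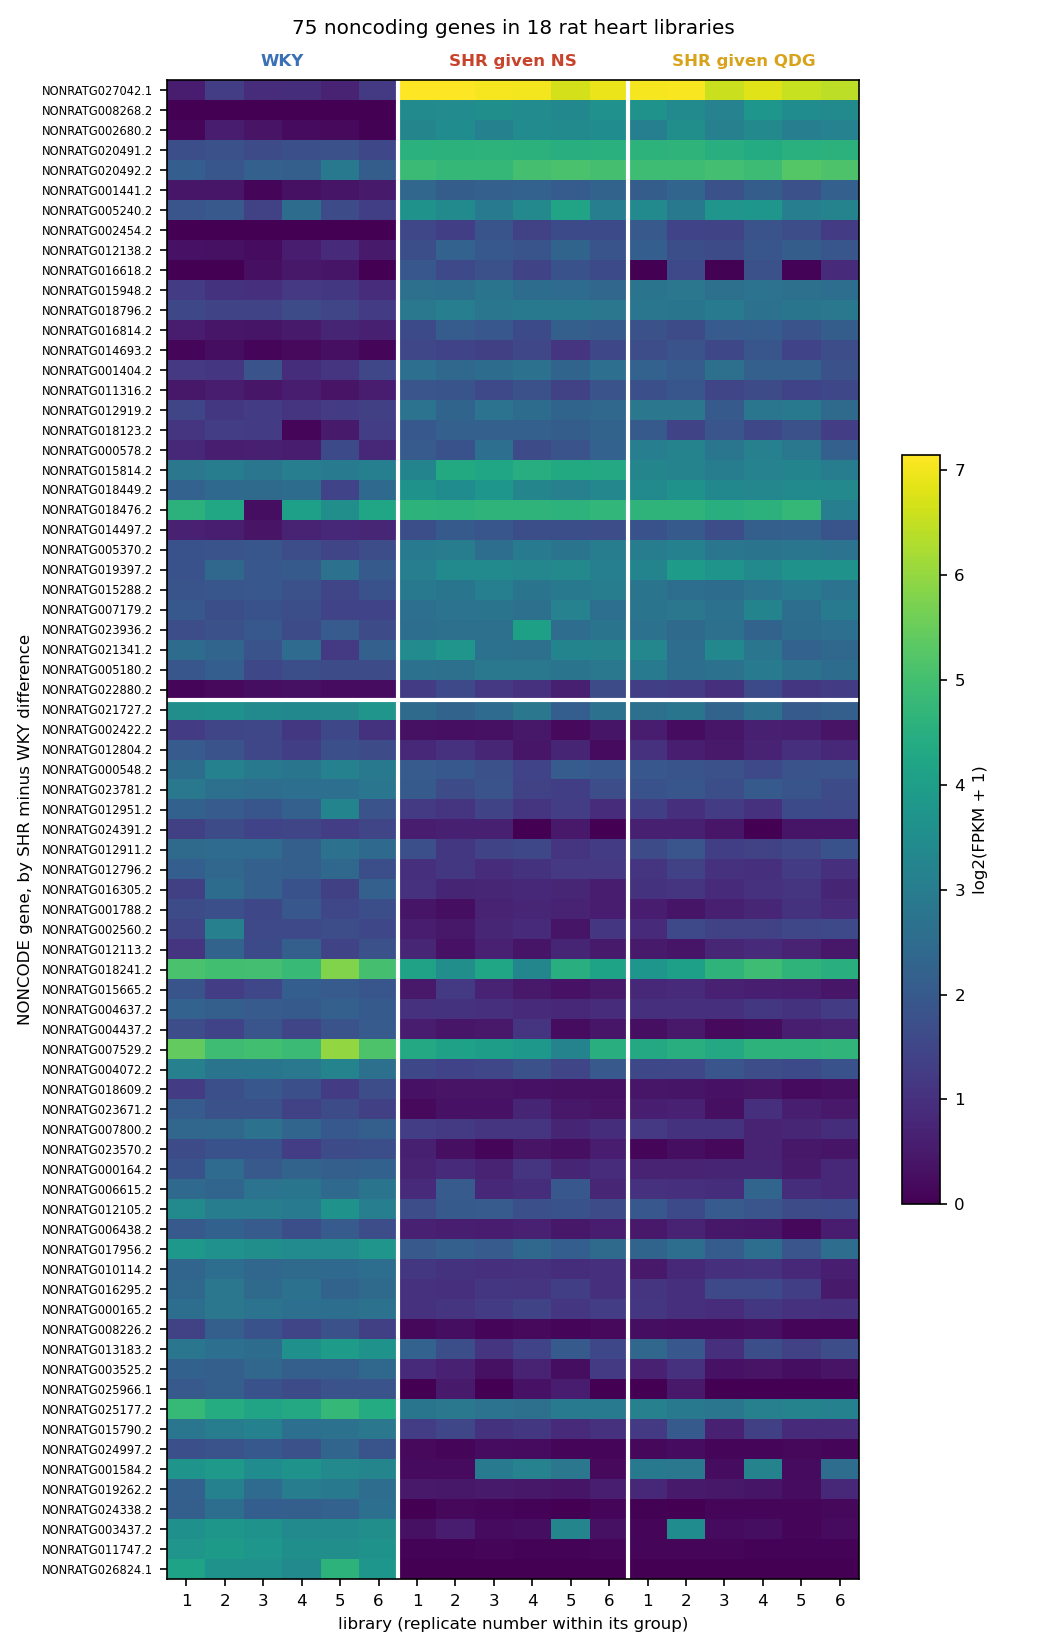
Level of each of the 75 members (rows, ordered from the most SHR-high to the most WKY-high) in each of the 18 libraries (columns, by group and replicate number), coloured by log2(FPKM + 1). The horizontal line separates the 31 members higher in SHR from the 44 lower ones, and the columns of SHR given QDG look like those of SHR given NS in nearly every row.

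In 4 members one strain was at or near 0. Every library of that strain was under 0.1 FPKM, and every library of the other was at 1 FPKM or more. NONRATG008268.2 was listed at 0 in all 6 WKY libraries, and in SHR it ran from 9.17 through a median of 9.90 to 11.1 FPKM. In QDG-treated SHR it ran from 8.01 through 9.92 to 12.4 FPKM. Every library of the SHR strain was thus above every WKY library by a wide margin. NONRATG002454.2 showed the same pattern at a lower level, listed at 0 in all WKY libraries and at 1.51, 1.95 and 2.62 FPKM (lowest, median, highest) in SHR. Its values in QDG-treated SHR were 1.39, 2.0 and 2.99 FPKM, overlapping those of SHR. In the other direction, NONRATG026824.1 was listed at 0 in all 12 SHR-strain libraries and stood at 9.45, 11.9 and 23.5 FPKM in WKY, the highest value being that of WKY replicate 5. NONRATG011747.2 had values of 10.6, 11.7 and 13.7 FPKM in WKY and of 0.0552, 0.0588 and 0.0658 in SHR. In QDG-treated SHR its values were 0.0515, 0.0658 and 0.0884 FPKM, so both SHR groups lay far below WKY. No fold is given against a group listed at 0.

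NONRATG027042.1 had the largest strain difference of all members. Its lowest, median and highest values were 0.480, 0.903 and 1.47 FPKM in WKY, 102, 130 and 140 in SHR and 85.3, 102 and 133 in QDG-treated SHR. The SHR mean of 127 ± 13.8 FPKM was 135-fold the WKY mean of 0.942 ± 0.388 (SD, n = 6 each), a difference of 6.06 in log2(FPKM + 1). The 3 lowest of the QDG values lay below the lowest SHR value and the other 3 inside the SHR range. NONRATG002680.2 was at 0.0380, 0.140 and 0.475 FPKM in WKY, at 7.85, 9.84 and 10.2 in SHR and, with QDG, at 7.34, 7.80 and 10.4, with an SHR mean 48.1-fold that of WKY. NONRATG001441.2 ran from 0.0990 to 0.429 FPKM in WKY, from 3.19 to 4.08 in SHR and from 2.42 to 4.05 in QDG-treated SHR. In each of these 3 genes no SHR-strain library, treated or not, reached down to the highest WKY library.

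A pair of members with consecutive identifier numbers, NONRATG020491.2 and NONRATG020492.2, were among the 5 largest differences in this direction. NONRATG020491.2 was at 1.93, 2.30 and 2.40 FPKM in WKY, at 21.8, 22.8 and 23.4 in SHR and, with QDG, at 20.1, 22.5 and 24.0, 10.1-fold higher by its SHR mean. NONRATG020492.2 was at 2.79, 3.43 and 6.46 FPKM in WKY, at 26.1, 29.9 and 33.4 in SHR and, with QDG, at 28.7, 30.5 and 37.1, 7.73-fold higher by its SHR mean. Their levels were thus alike in each group. Within groups the pair had little in common, with a Pearson correlation of 0.096 between the deviations from the group means over the 18 libraries. The highest WKY value of NONRATG020492.2 was that of WKY replicate 5, the library of lowest relative depth. NONRATG020491.2 was also highest in that library, but only just (2.40 FPKM against 1.93 to 2.39 in the others).

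**Figure D2:**
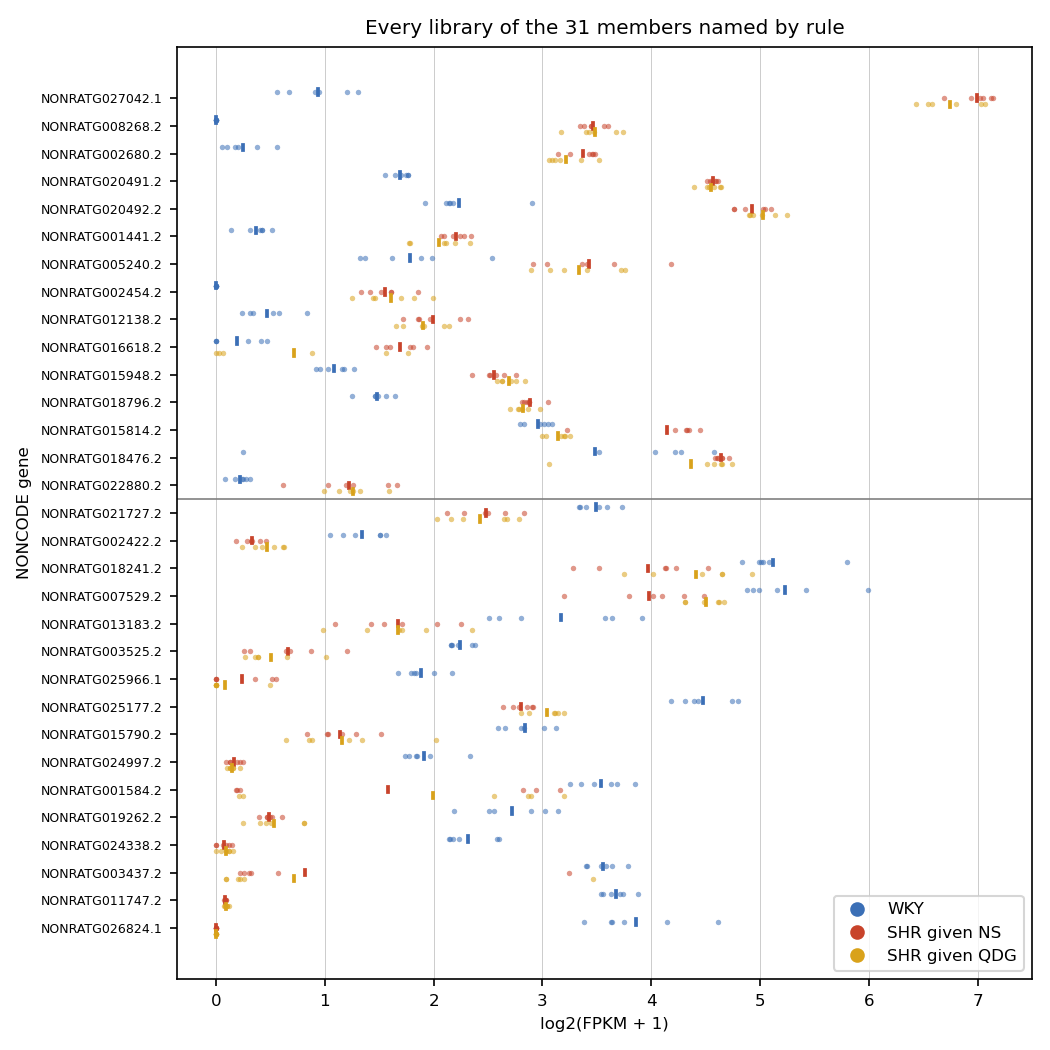
Each of the 31 members named by rule (rows) in every library (points) on the log2(FPKM + 1) scale, with short vertical bars at the group means; blue is WKY, red SHR given NS and yellow SHR given QDG. Above the grey line are members higher in SHR, below it members lower in SHR. The WKY and SHR ranges overlap in no row, by the rule that chose the members. In NONRATG018476.2 they nearly touch (highest WKY value 22.91 FPKM, lowest SHR value 22.98).

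Other members higher in SHR had smaller differences; each set of 3 values is again the lowest, the median and the highest of a group. NONRATG005240.2 was at 1.51, 2.38 and 4.79 FPKM in WKY and at 6.55, 9.47 and 17.2 in SHR, and at 6.42, 8.88 and 12.6 with QDG. NONRATG012138.2 was at 0.180, 0.356 and 0.789 FPKM in WKY and at 2.28, 2.78 and 3.97 in SHR, and at 2.15, 2.75 and 3.4 with QDG. For both genes 5 of the 6 QDG values lay inside the SHR range. NONRATG015948.2 was at 0.887, 1.14 and 1.41 FPKM in WKY and at 4.09, 4.83 and 5.75 in SHR, and at 5.01, 5.36 and 6.15 with QDG. NONRATG018796.2 was at 1.37, 1.78 and 2.14 FPKM in WKY and at 6.01, 6.29 and 7.28 in SHR, and at 5.51, 5.95 and 6.87 with QDG. The remaining 16 higher members that the rule for names did not take had mean levels of 0.133 to 3.93 FPKM in WKY, 1.67 to 9.83 in SHR and 2.13 to 11.2 in QDG-treated SHR, with log2 differences of 1.02 to 1.36 between the strains.

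Among members lower in SHR, several were near the limit of detection in the SHR strain. NONRATG024338.2 was at 3.43, 3.61 and 5.06 FPKM in WKY and at 0, 0.0576 and 0.107 in SHR, and at 0, 0.0774 and 0.113 with QDG. NONRATG024997.2 was at 2.34, 2.58 and 4.03 FPKM in WKY and at 0.0678, 0.119 and 0.185 in SHR, and at 0.0758, 0.104 and 0.169 with QDG. NONRATG025966.1 was at 2.18, 2.55 and 3.51 FPKM in WKY, while 3 of 6 SHR libraries and 5 of 6 QDG libraries listed it at 0 and the rest reached at most 0.468. In all 3 the SHR-strain libraries stayed under 0.5 FPKM. NONRATG019262.2 was at 3.57, 5.65 and 7.86 FPKM in WKY and at 0.313, 0.397 and 0.526 in SHR, and at 0.187, 0.395 and 0.751 with QDG, and its WKY mean was 14.1-fold the SHR mean.

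Other lower members kept a measurable level in SHR. NONRATG025177.2 was at 17.2, 20.2 and 26.8 FPKM in WKY and at 5.23, 6.09 and 6.56 in SHR, and at 5.99, 7.65 and 8.18 with QDG. NONRATG015790.2 was at 5.04, 6.04 and 7.74 FPKM in WKY and at 0.787, 1.14 and 1.87 in SHR, and at 0.562, 1.09 and 3.07 with QDG. NONRATG003525.2 was at 3.47, 3.58 and 4.22 FPKM in WKY and at 0.198, 0.584 and 1.30 in SHR, and at 0.203, 0.308 and 1.02 with QDG. For each of these 3 genes all 12 SHR-strain values lay below the lowest WKY value. NONRATG013183.2 had a wide range inside WKY, where it ran from 4.71 through 8.46 to 14.1 FPKM, against 1.13, 2.09 and 3.76 in SHR and 0.975, 2.24 and 4.12 in QDG-treated SHR. The remaining 28 lower members outside the rule for names had mean levels of 1.75 to 11.1 FPKM in WKY, 0.120 to 3.64 in SHR and 0.160 to 4.12 in QDG-treated SHR, with log2 differences of 1.03 to 1.5 between the strains.

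The 2 most abundant lower members were still well expressed in SHR. NONRATG007529.2 was at 28.4, 32.7 and 62.7 FPKM in WKY, at 8.15, 15.6 and 21.3 in SHR and, with QDG, at 18.8, 22.5 and 24.5. NONRATG018241.2 was at 27.4, 31.4 and 54.5 FPKM in WKY, at 8.73, 16.5 and 21.9 in SHR and, with QDG, at 12.5, 22.6 and 29.4. The highest WKY value of both was that of WKY replicate 5. That library was the highest of its group for 21 of the 75 members (28.0%) and for 22.4% of all NONCODE genes kept; the part of its depth in this was not tested. Without WKY replicate 5 both genes remained members. Just inside the limit of 1 were NONRATG022880.2, at 0.168 ± 0.0653 FPKM in WKY and 1.40 ± 0.603 in SHR, NONRATG021727.2, at 10.3 ± 1.25 and 4.64 ± 0.987, and NONRATG002422.2, at 1.56 ± 0.365 and 0.260 ± 0.0813 (SD, n = 6 each). Just outside it, with groups that also did not overlap, were NONRATG024523.2, at 6.65 ± 1.62 FPKM in WKY and 2.77 ± 0.419 in SHR, NONRATG000892.2, at 1.33 ± 0.361 and 3.63 ± 0.961, and NONRATG018722.2, at 3.39 ± 1.2 and 1.2 ± 0.408 (SD, n = 6 each).

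The next comparison was of the hypertensive heart with and without QDG. Of the 75 members, 1 differed between QDG-treated SHR and SHR, and 74 did not pass the test. NONRATG015814.2 was at 8.38 FPKM in SHR replicate 1 and at 19.1, 17.6, 20.8, 19.3 and 18.9 in SHR replicates 2 to 6. In QDG-treated SHR its 6 values were 8.56, 8.17, 7.20, 8.03, 8.26 and 6.95 FPKM, and in WKY they were 6.14, 7.10, 5.95, 7.30, 6.89 and 7.51. All QDG libraries and SHR replicate 1 therefore lay near the WKY level, and 5 SHR libraries stood apart at more than 17 FPKM. The difference of QDG-treated SHR from SHR was -1.0 in log2(FPKM + 1) (SE 0.15, limma with Benjamini-Hochberg adjustment over 17397 genes, adjusted p = 0.00406), and 4 of the 6 QDG values were still above every WKY value. The SHR values in this comparison also served to choose the gene as higher in SHR. Without SHR replicate 1 the difference was -1.19 (limma adjusted p = 1.1e-08), and over all 26 alternative settings it ran from -1.19 to -0.94 with a highest adjusted p of 0.0418.

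The 1 member called stands beside a background of 51 of all 17397 genes tested (0.293%), and nothing is read from a single call; of the 51, 36 were higher and 15 lower after QDG. With libraries centred on their medians the split was 46 higher and 31 lower, and with quantile normalization 49 higher and 30 lower. Leaving out 1 library gave 29 to 69 genes in all, and the count was 29 to 32 when SHR replicate 4 or 6, or QDG replicate 2, 3 or 6, was the library left out. At an unadjusted limma p under 0.05 were 13 of the 75 members, against 1817 of all 17397 genes (10.4%). The SHR values in this comparison also served to choose the members, which was not so for all genes, so nothing is read from the count. None of the 44 members lower in SHR was called by limma, with 5 of them at an unadjusted p under 0.05. No member had QDG and SHR values that did not overlap, which held for 1.15% of all genes. The median difference of QDG-treated SHR from SHR was 0.01 over the members and 0.02 over all genes, and the median absolute difference was 0.11 over the members, 0.10 over NONCODE genes and 0.07 over all genes. A p that misses the threshold does not show equal levels. In log2(FPKM + 1), where a given fold counts for less in low genes, the 95% interval of the difference lay within 1.5-fold in either direction for 60 members (80%), against 84.9% of NONCODE genes kept and 92.3% of all genes. It lay within 2-fold for 68 members (90.7%), against 94.4% of NONCODE genes kept and 97.6% of all genes. The members' shares were thus the lowest of the 3, a difference that was not tested. These limits are folds of FPKM + 1, which genes near 0 meet more easily. NONRATG026824.1, listed at 0 in both SHR groups, is counted among the 60.

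**Figure D3:**
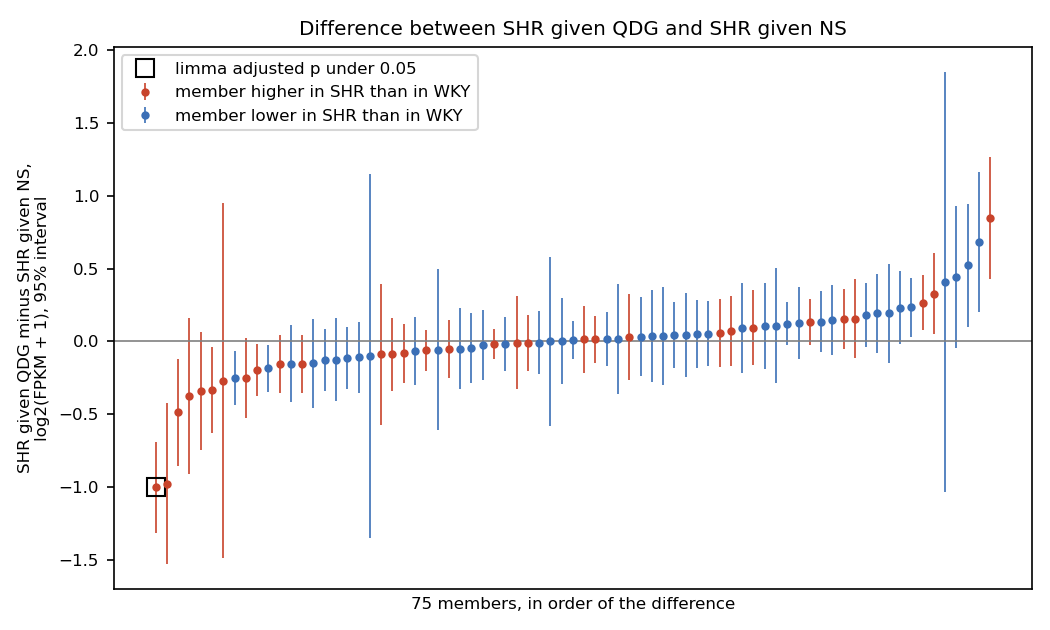
Difference of SHR given QDG from SHR given NS in log2(FPKM + 1) for each of the 75 members, in order of size, with 95% intervals from limma; red members are higher and blue members lower in SHR than in WKY. The square marks NONRATG015814.2, at -1.0, which alone passed the adjusted threshold.

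The 3 next members by unadjusted p did not pass the threshold; NONRATG000578.2 and NONRATG002560.2 were outside the rule for names and are given for this reason. NONRATG000578.2 was at 0.485, 0.647 and 2.04 FPKM in WKY, at 2.07, 2.85 and 5.12 in SHR and, with QDG, at 3.59, 6.76 and 8.21. Its QDG values lay farther from WKY than those of SHR, by 0.85 on the log2 scale (SE 0.20, 95% interval 0.43 to 1.26, limma adjusted p = 0.0888). It passed without WKY replicate 5 (adjusted p = 0.0331), SHR replicate 3 (0.0439) or QDG replicate 6 (0.0394). NONRATG016618.2 was at 2.82, 1.96, 2.44, 1.78, 2.5 and 2.03 FPKM in SHR replicates 1 to 6, and at 0 to 0.383 in WKY. With QDG it was at 1.96 FPKM in replicate 2, 2.40 in replicate 4 and 0.839 in replicate 6, and at 0 to 0.0454 in the other 3. The QDG libraries were thus spread over the ranges of both strains (difference -0.98, SE 0.26, limma adjusted p = 0.153, and 0.0368 without QDG replicate 4). NONRATG002560.2 was at 0.323, 0.587 and 1.19 FPKM in SHR and at 0.824, 1.74 and 1.98 in QDG-treated SHR, with 1.84 to 7.68 in WKY (difference 0.68, SE 0.23, limma adjusted p = 0.265, and 0.0323 without WKY replicate 2). Without WKY replicate 2 NONRATG002560.2 was not a member. The SHR values in these comparisons also served to choose the 3 genes.

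Against WKY, the treated libraries lay on the SHR side. In 66 of the 75 members, 26 of those higher and 40 of those lower in SHR, all 6 QDG values were beyond all 6 WKY values in the direction of SHR; over all genes the QDG and WKY values did not overlap in 10.4%, with QDG higher in 5.83% and lower in 4.59%. By limma, 69 members passed the adjusted threshold of 0.05 between QDG-treated SHR and WKY, where 20.9% of all genes did. The WKY libraries helped to choose the members and serve in both comparisons, so nothing is read from these counts. The position of the QDG mean was also taken as a percent of the way from the SHR mean to the WKY mean of log2(FPKM + 1), and its median over the members was 2.97%, with quartiles of -3.61% and 11.6%. It lay within 20% of SHR for 60 members and past 50% for 3, which were NONRATG015814.2 at 84.6%, NONRATG016618.2 at 65.1% and NONRATG002560.2 at 60.1%. NONRATG000578.2 lay the other way, at -71.5%. The SHR and WKY means that set this scale also chose the members, and no background was taken. The positions are therefore a description only.

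In the other 9 members at least 1 QDG library was not beyond WKY. Besides NONRATG015814.2, NONRATG016618.2 and NONRATG002560.2 these were NONRATG001404.2, NONRATG018476.2 and NONRATG021341.2 among the higher members, and NONRATG018241.2, NONRATG006615.2 and NONRATG003437.2 among the lower ones. NONRATG001404.2 was at 0.929 to 2.56 FPKM in WKY, 3.93 to 5.31 in SHR and 2.42 to 5.19 in QDG-treated SHR, with 5 QDG values above WKY. NONRATG021341.2 was at 1.32 to 4.80 FPKM in WKY, 5.17 to 12.1 in SHR and 3.74 to 9.08 in QDG-treated SHR, with 4 QDG values above WKY. In several of the rest, single libraries inside a group stood far apart.

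Members whose libraries split into separate levels inside a group were singled out after their values were seen, by a gap of at least 1 between neighbouring log2(FPKM + 1) values of a group. There were 6, or 8% of the members, against 7.18% of all NONCODE genes kept. NONRATG001584.2 was at 8.52 to 13.5 FPKM in all WKY libraries. In SHR it was at 0.145, 0.166 and 0.134 FPKM in replicates 1, 2 and 6, and at 6.67, 7.92 and 6.05 in replicates 3, 4 and 5. After QDG it was at 0.187 and 0.155 FPKM in replicates 3 and 5, and at 4.86 to 8.16 in the other 4. Of the 12 SHR-strain libraries 5 were thus under 0.2 FPKM and 7 at an intermediate level below every WKY library, with no value between. The difference between the SHR groups was 0.41 with a 95% interval of -1.04 to 1.85, so little can be read from it.

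NONRATG003437.2 came near or into the WKY range in single SHR-strain libraries. It was at 9.54 to 12.8 FPKM in WKY, at 8.48 in SHR replicate 5 and at 0.165 to 0.485 in the other SHR libraries. With QDG it reached 10.04 FPKM in replicate 2, inside the WKY range, and at 0.0636 to 0.195 in the others. NONRATG006615.2 was at 4.02 to 5.85 FPKM in WKY, and in SHR it was at 3.12 in replicate 2 and 2.80 in replicate 5 against 0.710 to 0.899 in the other 4. In QDG-treated SHR it was at 4.05 FPKM in replicate 4, inside the WKY range, and at 0.772 to 1.04 in the others. The libraries that carried the high level thus differed between NONRATG001584.2, NONRATG003437.2 and NONRATG006615.2, apart from SHR replicate 5, which was high for all 3, and QDG replicates 2 and 4, each high for NONRATG001584.2 and 1 of the others.

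NONRATG018476.2 was a member through a different split. It was at 23.0 to 25.3 FPKM in SHR, and in WKY at 0.191 in replicate 3 and at 10.5 to 22.9 in the other 5. In QDG-treated SHR it was at 7.37 FPKM in replicate 6 and at 21.8 to 25.8 in the others. Without WKY replicate 3 it was not a member, since its strain difference then fell below 1. NONRATG023936.2 was at 15.6 FPKM in SHR replicate 4, at 4.83 to 5.77 in the other SHR libraries, at 3.84 to 5.52 in QDG-treated SHR and at 2.17 to 3.13 in WKY. NONRATG002560.2 was at 7.68 FPKM in WKY replicate 2 and at 1.84 to 2.25 in the other WKY libraries. These genes too were not members without the library that stood apart, SHR replicate 4 for NONRATG023936.2 and WKY replicate 2 for NONRATG002560.2. Their strain differences then also fell below 1.

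**Figure D4:**
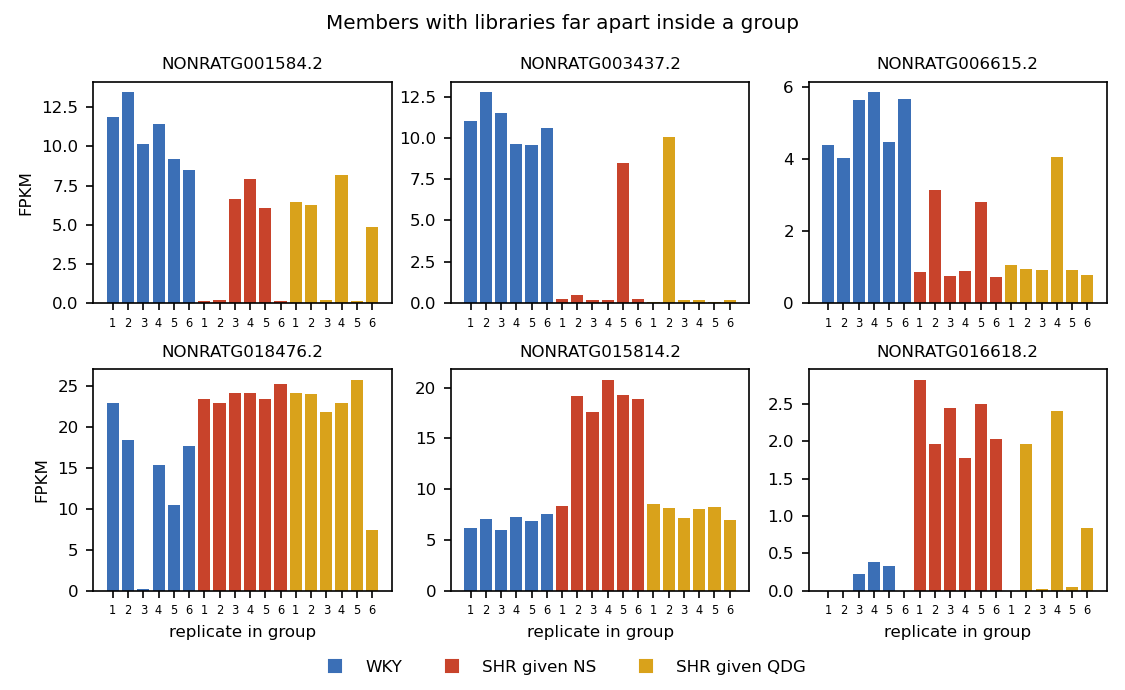
FPKM of 6 members in each library, by replicate number within WKY (blue), SHR given NS (red) and SHR given QDG (yellow). These are not the 6 singled out by a gap of at least 1. NONRATG015814.2 and NONRATG016618.2 missed that limit and were added, while NONRATG023936.2 and NONRATG002560.2 met it and are not drawn. In NONRATG001584.2, NONRATG003437.2 and NONRATG006615.2 some SHR-strain libraries reach or approach the WKY level, in NONRATG018476.2 WKY replicate 3 and QDG replicate 6 are low, in NONRATG015814.2 SHR replicate 1 and all QDG libraries are near WKY, and in NONRATG016618.2 the QDG libraries are divided.

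Some of these splits recurred in other genes. Likeness was the Pearson correlation of the deviations from the group means of log2(FPKM + 1) over the 18 libraries, given as a description of libraries that share depth and preparation, and the search over all 17397 genes was added after the values were seen. No reference was taken for the best match among so many genes. The gene most like NONRATG001584.2 was NONRATG004089.2, with the opposite sign (r = -0.862). In SHR replicates 1, 2 and 6 NONRATG004089.2 was at 3.80, 3.66 and 4.19 FPKM, and in replicates 3, 4 and 5 at 1.46, 1.55 and 1.37. In QDG-treated SHR it was at 3.17 and 4.29 FPKM in replicates 3 and 5 and at 1.49 to 1.93 in the other 4. The 5 SHR-strain libraries with almost no NONRATG001584.2 were thus the 5 with the highest NONRATG004089.2. In WKY, where NONRATG001584.2 was high throughout, NONRATG004089.2 ran from 1.94 to 4.10 FPKM.

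NONRATG006615.2 was most like ENSRNOG00000006151 (r = 0.877). That gene was at 4.40 FPKM in SHR replicate 2, 7.98 in SHR replicate 5 and 7.61 in QDG replicate 4, the 3 SHR-strain libraries with high NONRATG006615.2, and at 0.908 to 2.29 in the other 9. In WKY, ENSRNOG00000006151 was low, at 0.0635 to 2.16 FPKM, where NONRATG006615.2 was high. NONRATG018476.2 was most like ENSRNOG00000021183 (r = 0.907), which was listed at 0 in WKY replicate 3 and stood at 3.53 to 6.14 FPKM in the other 17 libraries. The low value of NONRATG018476.2 in QDG replicate 6 had no counterpart there, at 5.14 FPKM. Next in likeness to NONRATG018476.2 was NONRATG024393.2 (r = 0.877), at 0.0825 FPKM in WKY replicate 3 and 7.06 to 15.3 in the other libraries. NONRATG015814.2, the member called between QDG-treated SHR and SHR, was most like NONRATG024571.2 (r = 0.927), which was at 1.01 FPKM in the SHR replicate 1 library but between 242 and 301 in the other 17 libraries. Next was ENSRNOG00000030712 (r = 0.915), at 0.0339 FPKM in SHR replicate 1 and 0.925 to 1.49 in QDG-treated SHR. These genes thus shared the low value of SHR replicate 1, and the low QDG level of NONRATG015814.2 did not recur in them. NONRATG023936.2 was most like NONRATG022550.2, with the opposite sign (r = -0.921), which was at 0.109 FPKM in SHR replicate 4, while the other 17 libraries had 1.56 to 3.38.

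**Figure D5:**
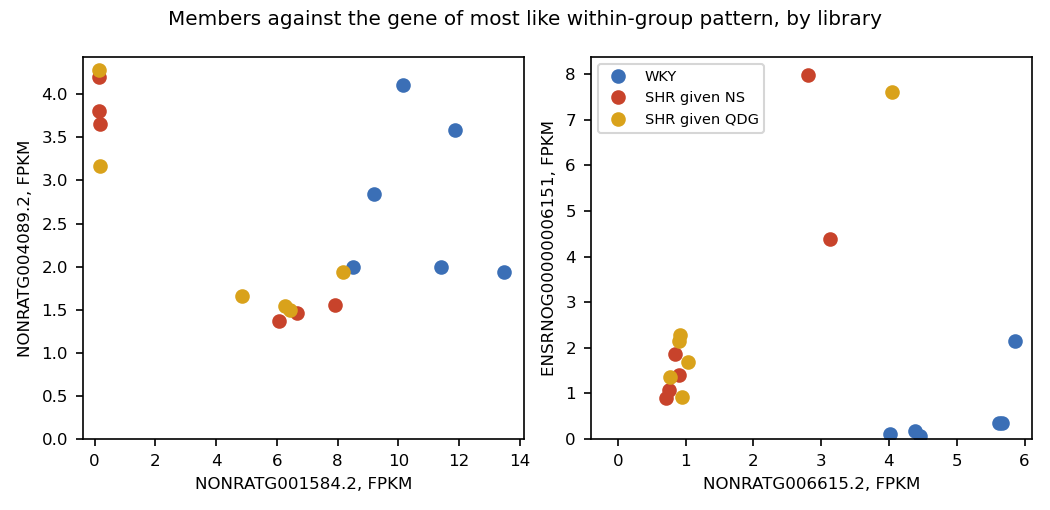
FPKM of a member (horizontal axis) against the gene of most like within-group pattern (vertical axis), 1 point per library, for NONRATG001584.2 with NONRATG004089.2 and for NONRATG006615.2 with ENSRNOG00000006151. Blue is WKY, red SHR given NS and yellow SHR given QDG. On the left, 5 SHR-strain libraries with NONRATG001584.2 under 0.2 FPKM have more NONRATG004089.2 (3.17 to 4.29) than the other 7 (1.37 to 1.93); on the right, 3 SHR-strain libraries are high for both genes.

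The members otherwise had little in common within groups. Over 2775 pairs of members the median correlation of within-group deviations was 0.03, and no pair reached 0.8. A correlation of -0.8 or below was found in 3 pairs, NONRATG018449.2 with NONRATG020492.2 (-0.858), NONRATG018609.2 with NONRATG026824.1 (-0.829) and NONRATG018609.2 with NONRATG025177.2 (-0.815). Since NONRATG026824.1 was listed at 0 in every SHR-strain library, its deviations come from the WKY libraries alone. In WKY replicate 5, NONRATG018449.2 was the lowest of its group (1.71 FPKM against 3.71 to 4.74) and NONRATG020492.2 and NONRATG026824.1 were the highest. NONRATG018609.2 was lowest in WKY replicates 1 and 5, at 1.41 FPKM in each, where NONRATG025177.2 was highest, at 26.8 and 25.8 FPKM. The median within-group SD of log2(FPKM + 1) was 0.220 for members and 0.212 for all NONCODE genes kept. Besides the consecutive pair above, NONRATG000164.2 and NONRATG000165.2 were the only members with identifier numbers within 5 of each other, and both were lower in SHR (r = 0.518). The number after the point in an identifier is its version; 3 of the 75 members (4%) carried version 1, against 48 of 5001 NONCODE genes kept (0.960%), and these were NONRATG027042.1, NONRATG026824.1 and NONRATG025966.1. The first of them had the largest strain difference of the higher members and the second that of the lower members. SHR replicate 5 held the lowest SHR value for 29 members (38.7%) and for 23.4% of all NONCODE genes kept, and QDG replicate 2 the highest QDG value for 24 (32.0% against 20.3%).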

How the data were processed

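RNA from heart tissue was sequenced in 18 libraries, 6 in each of the groups WKY, SHR (given NS) and QDG-treated SHR, as the labels assign them. The authors deposited 1 table of values per gene and library, used here as FPKM because low values rise in whole steps that depend on the gene; a TPM table with genes removed cannot be told apart from it. Aligner, counter, genome build, annotation and strand use: not given in the sources used here. Reads of overlapping or antisense genes therefore cannot be separated. The submitters' processing notes name limma. Read depth is unknown, so no counting interval is given.

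From these values, genes that reached 1 FPKM in 6 or more libraries were kept (17397 of 37262). Of the 75 members, 26 reached 1 FPKM in no library of the strain where they were lower and passed through the other strain or the treated libraries. Differences are of log2(FPKM + 1), which understates changes of low genes, and folds are ratios of mean FPKM. limma 3.58.1 (R 4.3.3, statmod 1.5.0) was fitted to all 18 libraries with 1 mean per group, an intensity trend and robust moderation. Two-sided p-values were adjusted by Benjamini-Hochberg over 17397 genes, with a threshold of 0.05. The fit was tested on simulated data. The members and lists were chosen with earlier results of these data known.

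Named with values were the 12 largest strain differences in each direction, members called between QDG-treated SHR and SHR, members under 0.1 FPKM throughout 1 strain and at 1 FPKM or more throughout the other, the 3 most abundant in each direction, the 3 genes on each side of the difference limit and the 3 with the largest spread within a group. Alternatives were the pseudocount, the filter, the scaling, the moderation, a replicate block, the 12 compared libraries alone and leaving out each library. A planned permutation test of the summed FPKM was not run, because the members were chosen with results known, and the sums are described only. The planned marker lists were not used, since no identifier could be matched to a symbol.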

Additional observations from a re-analysis of the deposited data

Results flagged for a closer look

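In 9 of the 89 groups of 6 values checked for the named members, the highest or lowest library stood apart from the rest by Dixon's criterion. Chance alone meets this criterion in about 1 group in 20. The named members include the 3 picked for the largest spread within a group, so that rate is no fair reference. Nothing is read from the count. In WKY, NONRATG020492.2 was at 6.46 FPKM in replicate 5 (others 2.79 to 3.53), NONRATG018241.2 at 54.5 FPKM in replicate 5 (others 27.4 to 32.8) and NONRATG018476.2 at 0.191 FPKM in replicate 3 (others 10.5 to 22.9). In SHR, NONRATG018796.2 was at 7.28 FPKM in replicate 2 (others 6.01 to 6.34), NONRATG015814.2 at 8.38 FPKM in replicate 1 (others 17.6 to 20.8) and NONRATG003437.2 at 8.48 FPKM in replicate 5 (others 0.165 to 0.485). In QDG-treated SHR, NONRATG018476.2 was at 7.37 FPKM in replicate 6 (others 21.8 to 25.8), NONRATG003437.2 at 10.04 FPKM in replicate 2 (others 0.0636 to 0.195) and NONRATG025966.1 at 0.413 FPKM in replicate 2, with the others listed at 0. WKY replicate 5 and QDG replicate 2 each held 2 of the 9 values.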

How the results depend on the processing

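The number of members followed the limits of the rule: 118 at a difference of 0.8 and 45 at 1.2 (both limits chosen after seeing the data), 32 with a filter at 5 FPKM and 134 with a pseudocount of 0.1. It was 71 to 81 when 1 library was left out, and 59 of the 75 members met the rule in all 18 such settings. Members called between QDG-treated SHR and SHR numbered 1 to 2 when 1 library was left out. All genes called there numbered 77 with median centring, 79 with quantile normalization, 30 with no filter and 29 to 69 with 1 library left out. With the filter at 5 FPKM, 28 of 32 members differed between QDG-treated SHR and WKY and 27 had all QDG values beyond WKY on the SHR side. With the replicate number as a block, 1 member and 40 genes in all were called between QDG-treated SHR and SHR (33 shared with the 51), and 69 members between QDG-treated SHR and WKY; same-numbered libraries shared only a number (r of -0.06 to 0.19, with 4 of 18 libraries correlating best with their own number). Of 794 alternative values of the named members' QDG against SHR differences, 755 changed neither sign nor side of the threshold (26 of these are of NONRATG026824.1, listed at 0 in both groups, which has no direction), 1 passed it anew (NONRATG016618.2 without QDG replicate 4) and 38 in 12 members changed sign. None of the 38 passed the threshold (lowest limma adjusted p 0.762), and those 12 members' differences were at most 0.099 in size as reported, so no direction is read from them. The sign changed with median centring for NONRATG008268.2 (-0.0053), NONRATG015790.2 (-0.0020), NONRATG024338.2 (-0.0031) and NONRATG011747.2 (-0.012), with quantile normalization for NONRATG022880.2 (-0.015) and NONRATG015790.2 (-0.034), and with a pseudocount of 0.1 for NONRATG015790.2 (-0.022). With 1 library left out, the difference ran from -0.036 to 0.078 for NONRATG008268.2, -0.038 to 0.011 for NONRATG020491.2, -0.19 to 0.062 for NONRATG005240.2, -0.020 to 0.13 for NONRATG002454.2, -0.090 to 0.12 for NONRATG022880.2, -0.12 to 0.029 for NONRATG021727.2, -0.14 to 0.14 for NONRATG013183.2, -0.15 to 0.12 for NONRATG015790.2, -0.0084 to 0.10 for NONRATG019262.2 and -0.65 to 0.39 for NONRATG003437.2. The causes were not tested. Unknown depth limits what can be said of values near 0.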
